A study of Mus musculus with 10 samples.

Results

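The expression of 7 long noncoding RNA genes was described in mouse mammary tissue: the nuclear RNAs Malat1 and Neat1, the imprinted RNAs Meg3 and H19, and the small nucleolar RNA (snoRNA) host genes Gas5, Snhg1 and Snhg12. They were listed by name, with earlier results of these data known. All 7 were found among the 46983 genes counted in each library and passed the filter on low counts. The libraries were made from right thoracic mammary fat pads of virgin female C57BL/6 mice at post-natal day 130, 1 library per mouse. In all, 5 mice had been fed a diet with 1 mg folic acid (FA) per kg (CFA, the control group) and 5 a diet with 5 mg FA per kg (HFA) for 4 weeks, and both groups then received the same maintenance diet for a further 4 weeks. The comparison asks whether expression still differed between HFA and CFA mice after supplementation had ended. The tissue was taken as an intact fat pad, so each library mixes ducts, fat and whatever lymph node or muscle came with the pad.

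Malat1 and Neat1 are abundant, mostly unspliced RNAs that remain in the nucleus: Malat1 is found at nuclear speckles, where splicing factors are stored, and the long form of Neat1 is the scaffold on which paraspeckles are built. Meg3 and H19 are transcribed from the maternal chromosome only, Meg3 in a cluster with Rian, Mirg and Dlk1, and H19 beside the growth factor gene Igf2. H19 also holds the precursor of the microRNA miR-675, and it is one of the few fetal RNAs that adult skeletal muscle keeps at a high level. In the host genes the product that is kept lies in the introns, each of which can release a snoRNA that guides ribose methylation (box C/D class) or pseudouridylation (box H/ACA class) of ribosomal RNA. The spliced host RNA itself is poorly coding, begins in the manner of ribosomal protein transcripts with a run of pyrimidines, and is destroyed by nonsense-mediated decay when it is translated.

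The host genes were laid out as follows in the annotation of GRCm38. Gas5 (chromosome 1, 161034422 to 161038539, plus strand) held 10 annotated snoRNA genes, Snhg1 (chromosome 19, 8723475 to 8726443, plus strand) held 8, and Snhg12 (chromosome 4, 132308623 to 132311024, plus strand) held 5. Snord80 in Gas5 and Snora16a in Snhg12 each appear under more than 1 gene identifier over almost the same bases. The counts given here are thus of annotated genes, not of distinct snoRNAs. A box C (TGATGA) near the start and a box D (CTGA) near the end were both found in 8 of the 10 in Gas5 and 6 of the 8 in Snhg1. In Snhg12 only Snord99 of its 5 carried both, and the others include Snora16a, Snora44 and Snora61 of the H/ACA class. One box C/D snoRNA of each host is shown, with both boxes in capitals, because these are the products for which the host genes are named; positions are GRCm38, and the sequences were cut from the GENCODE M21 transcripts.

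Snord47 in Gas5, chr1:161038082-161038158, plus strand: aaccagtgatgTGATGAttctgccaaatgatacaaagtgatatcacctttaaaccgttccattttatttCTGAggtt
Gm25855 in Snhg1, chr19:8723993-8724064, plus strand: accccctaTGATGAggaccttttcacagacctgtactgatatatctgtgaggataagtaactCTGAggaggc
Snord99 in Snhg12, chr4:132310691-132310764, plus strand: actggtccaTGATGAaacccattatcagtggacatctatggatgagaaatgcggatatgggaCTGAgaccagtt

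None of the 23 snoRNA genes of the 3 hosts had a single read counted in any of the 10 libraries, and over all 1507 snoRNA genes in the files 272 had a count. All 23 lie inside sequence that the annotation also assigns to an exon of the host, because transcripts with retained introns are annotated, so a read there touches both genes. The exonic sequence shared with another counted gene came to 17.8% in Gas5, 20.9% in Snhg1 and 19.6% in Snhg12, against 1.85% in Neat1, 7.72% in Malat1, 8.29% in Meg3 and 9.15% in H19. If such reads were set aside as ambiguous, which the sources used here do not say, host reads over these stretches are missing from the CPM and RPKM given here. The counts are thus those of the long host RNAs, spliced and unspliced together, and give no level for the snoRNAs.

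Start sequences from RefSeq (GRCm38.p6) were at hand for 5 of the 7 genes, with 7 start sites among them, and windows of 80 bases around a start of each host gene are printed because host RNAs of this kind are known for the sequence with which they begin. Each window runs from 45 bases before the RefSeq start to 35 bases from it. Capitals mark a run of at least 5 pyrimidines that begins with C within 5 bases of the start, on the transcribed strand.

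Gas5, chr1:161035121-161035200, plus strand: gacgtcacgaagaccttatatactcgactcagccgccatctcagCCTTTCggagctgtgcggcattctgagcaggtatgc
Snhg12, chr4:132308633-132308712, plus strand: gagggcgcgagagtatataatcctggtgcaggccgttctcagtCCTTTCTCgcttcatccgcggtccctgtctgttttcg
Snhg1, chr19:8723442-8723521, plus strand: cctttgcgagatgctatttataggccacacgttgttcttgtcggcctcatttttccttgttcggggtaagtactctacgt

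Such a run was found at 3 of the 7 starts, at a start of Gas5 (6 pyrimidines), Snhg12 (8 pyrimidines) and Meg3 (5 pyrimidines). It was not found at the listed start of Snhg1 or Malat1, nor at the other listed start of Gas5 and of Meg3. It was present in 18.3% of all 32851 RefSeq promoters and in 6 of 16 promoters of other host genes. The letters TATATA, which read the same on both strands, occurred within the 300 bases around the same 3 of the 7 starts. They occurred in 5.67% of all promoters and in 0 of the 16 promoters of other host genes. The motif definitions were chosen after the sequences had been read, and a match is a description of letters only.

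For H19 (chromosome 7, 142575529 to 142578143, minus strand) the mature arms of its microRNA are shown with the seed, bases 2 to 8, in capitals. Both arms lie within H19, at 142577112 to 142577133 and 142577078 to 142577099 on the minus strand of chromosome 7.

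mmu-miR-675-5p: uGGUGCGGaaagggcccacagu
mmu-miR-675-3p: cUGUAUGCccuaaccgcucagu

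The precursor gene Mir675 and the Meg3-hosted Mir770 were at 0 counts in all 10 libraries. Both lie inside exonic sequence of the long RNA, and the library kit does not capture short RNAs, so these zeros say nothing of the microRNA levels. Meg3 lies on chromosome 12 (109541001 to 109571726, plus strand). Malat1 (5795690 to 5802672) and Neat1 (5824708 to 5845478) are neighbours on the minus strand of chromosome 19.

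Between 7711010 and 14829291 reads were counted on genes in the CFA libraries and between 7672199 and 14336914 in the HFA libraries. The 3 libraries CFA 2, CFA 5 and HFA 5 carried the markers of lymphocytes. The summed level of 8 B cell markers was 356, 953 and 2795 CPM (counts scaled for library size) in them and 3.76 to 6.59 CPM in the other 7, and none of the 8 was at 0 in any library. HFA 5 also stood apart over all genes, with a median correlation of 0.798 with the other libraries against 0.918 to 0.970 for the rest. Mammary epithelium markers, 8 of 8 detected, summed to 518 to 2262 CPM in CFA and 317 to 1573 CPM in HFA. Adipocyte markers, 7 of 7 detected, summed to 9859 to 15510 CPM in CFA and 10817 to 17904 CPM in HFA.

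Per kilobase of exonic sequence, H19 was the most abundant of the 7 genes and Meg3 the least. The median over the 10 libraries was 133 RPKM (CPM per kilobase) for H19, 52.3 RPKM for Malat1, 28.5 RPKM for Neat1, 25.6 RPKM for Gas5, 7.54 RPKM for Snhg1, 6.33 RPKM for Snhg12 and 1.08 RPKM for Meg3. In that order, the ranges over libraries were apart only between Gas5 and Snhg1 and between Snhg12 and Meg3; the other neighbours overlapped. Malat1 was above Neat1 in all 10 libraries, and H19 was above Malat1 in 8 of 10. The kit selects polyadenylated RNA, and how fully it captured each of these RNAs was not measured. Levels between genes thus hold for the captured RNA only. The gene counts also do not separate the long form of Neat1 from its shorter transcripts. The order depends on the length used: per median annotated transcript length in place of all exonic sequence, the means put Malat1 first (687 RPKM), then Neat1 (293 RPKM), H19 (273 RPKM), Gas5 (190 RPKM), Snhg1 (44.3 RPKM), Meg3 (23.2 RPKM) and Snhg12 (17.3 RPKM). That median was 606 bases for Malat1 against 6983 exonic bases, 2017 against 20771 for Neat1, 797 against 18089 for Meg3 and 1178 against 2460 for H19. Reads over all exonic sequence are thus divided by the length of short annotated transcripts, which raises these values unequally.

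The genes differed widely in how much they varied among mice. The highest library exceeded the lowest 58.4-fold for H19 and 14.8-fold for Meg3, against 3.91-fold for Malat1, 2.16-fold for Neat1, 2.84-fold for Gas5, 2.70-fold for Snhg1 and 4.06-fold for Snhg12. The spans of H19 and Meg3 rest largely on 1 library, HFA 5, at 10.2 CPM of H19 and 1.91 CPM of Meg3. The next lowest values were 100.5 CPM of H19 in CFA 2 and 8.59 CPM of Meg3 in HFA 4. The biological coefficient of variation within diets was 0.77 for H19, which placed it at percentile 95.1 of the 15610 genes tested, and 0.60 for Meg3 at percentile 89.9. Neat1 was the steadiest, with 0.24 at percentile 31.0. The other 4 lay between percentiles 66.7 and 77.0.

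**Figure D1:**
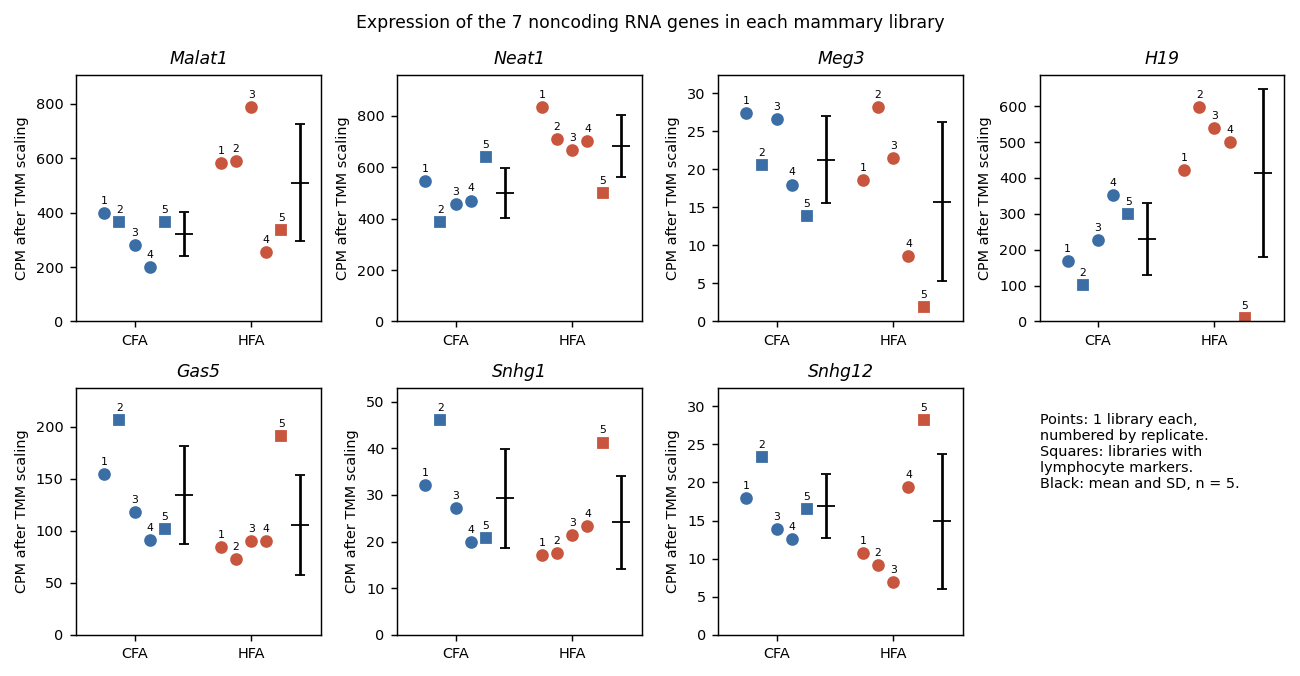
Level of each of the 7 genes in the 10 libraries, in CPM after TMM scaling on a linear axis from 0; each point is 1 library, squares are the 3 libraries with lymphocyte markers, and black bars are the mean and SD of 5 libraries. In all, 4 of 5 HFA points lie above all CFA points for Neat1 and H19 and below all CFA points for Gas5, and HFA 5 is the exception in each.

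No member passed the adjusted threshold between the diets. Over the 15610 genes tested by edgeR's quasi-likelihood method, with p values adjusted by Benjamini-Hochberg, 0 (0%) had an adjusted p below 0.05, and 1149 (7.36%) had an unadjusted p below 0.05. The count past an adjusted p of 0.05 was 33 (0.211%) in edgeR's likelihood ratio fit, 60 (0.384%) in DESeq2, 0 in limma voom without and 1037 (6.64%) in limma voom with sample quality weights, and Neat1 was the only member among any of these, in the last. Among the 7 members, only Neat1 had an unadjusted p below 0.05 in the first test, while 3.87% of all genes had one with a higher and 3.49% with a lower level in HFA. For no member was every HFA library above every CFA library (0.75% of genes) or below (0.243%). Of the members, 3 had a positive and 4 a negative log2 fold change (HFA minus CFA), with a median of -0.17 against 0.06 over all genes tested. In bulk tissue, fewer cells of a type and less RNA per cell cannot be told apart, which holds for every level given here.

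Malat1 was measured at 399.7, 366, 280.1, 202 and 365 CPM in CFA 1 to 5 and at 582, 589, 789, 256 and 337 CPM in HFA 1 to 5. HFA 1, 2 and 3 were above every CFA library, whereas HFA 4 and HFA 5 fell inside the CFA range. The means were 323 ± 80.6 CPM (SD, n = 5) in CFA and 510.5 ± 214.5 CPM (SD, n = 5) in HFA. The log2 fold change was 0.66 (SE 0.31), and an adjusted p = 0.678 in edgeR (unadjusted p = 0.0591).

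Neat1 was measured at 545, 386, 458, 470.1 and 638 CPM in CFA 1 to 5 and at 835, 708, 668, 702 and 499 CPM in HFA 1 to 5. HFA 1 to 4 were above the highest CFA library, and HFA 5 lay within the CFA values. The means were 499 ± 95.9 CPM (SD, n = 5) and 682 ± 120.4 CPM (SD, n = 5), and the log2 fold change was 0.45 (SE 0.19, unadjusted p = 0.0359, adjusted p = 0.656 by edgeR). Although the genes are neighbours, their ratio was not steady: the log2 ratio of Neat1 to Malat1 CPM ran from -0.24 in HFA 3 to 1.46 in HFA 4.

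The proteins of the bodies that these RNAs occupy were read beside them. Of 14 paraspeckle proteins, all tested, 3 had a higher and 11 a lower level in HFA, 0 passed the adjusted threshold, and their median log2 fold change was -0.07. Cirbp, a cold-inducible RNA-binding protein, was the only one with an unadjusted p below 0.05, at 44.6 ± 5.00 CPM in CFA and 64.1 ± 22.6 CPM in HFA (log2 fold change 0.52, SE 0.24, unadjusted p = 0.0498, adjusted p = 0.670 by edgeR). Of 16 nuclear speckle and SR proteins, 9 were higher and 7 lower, with a median of 0.01 and none below an unadjusted p of 0.05. The speckle scaffold Srrm2 was at 505 ± 39.3 CPM in CFA and 607 ± 46.3 CPM in HFA (unadjusted p = 0.0590, adjusted p = 0.678 by edgeR), and Son, the other core speckle protein, was at 429.7 ± 28.3 CPM and 478 ± 78.8 CPM (adjusted p = 0.815 by edgeR).

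H19 had the largest fold change of the 7 genes and the largest spread. It was measured at 168, 100.5, 226, 353 and 299.8 CPM in CFA 1 to 5 and at 421, 599, 540.5, 500.3 and 10.2 CPM in HFA 1 to 5. HFA 1 to 4 were above every CFA library, and HFA 5 was below every CFA library, with 161 reads. The means were 229.6 ± 101 CPM (SD, n = 5) in CFA against 414 ± 235 CPM (SD, n = 5) in HFA. The log2 fold change of 0.85 (SE 0.74) had an adjusted p of 0.800 in edgeR.

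The level of H19 followed the skeletal muscle markers of the same library. The 8 markers, none at 0 in any library, summed to 6932 to 41958 CPM in CFA and to 712 CPM (HFA 5) to 54996 CPM in HFA, a 77.2-fold span. Per 1000 CPM of these markers H19 was at 9.54, 14.5, 10.4, 10.5 and 7.14 CPM in CFA 1 to 5 and at 9.08, 11.7, 13.1, 9.10 and 14.4 CPM in HFA 1 to 5. On that scale the 10 libraries spanned 2.03-fold and the diets overlapped, with means of 10.4 ± 2.65 (SD, n = 5) in CFA and 11.5 ± 2.37 (SD, n = 5) in HFA. With the mean log2 CPM of the muscle markers in the model, the log2 fold change of H19 was 0.09 (SE 0.17, adjusted p = 0.835 by edgeR). The 3 genes whose levels ranked most like those of H19 over the 10 libraries were Filip1 (Spearman rho 1.00), Sptb, the erythrocyte and muscle beta-spectrin (0.99), and the antisense transcript Gm15179 (0.99). The muscle-specific myosin heavy chain Myh4, the most abundant marker, ranged from 192 to 19000 CPM in HFA alone. The likeness and the ratio were examined after the values had been seen.

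Meg3 was measured at 27.3, 20.5, 26.6, 18.0 and 13.8 CPM in CFA 1 to 5 and at 18.6, 28.2, 21.4, 8.59 and 1.91 CPM in HFA 1 to 5. HFA 2 was the highest library of all, while HFA 4 and HFA 5 were below every CFA library. The means were 21.2 ± 5.75 CPM (SD, n = 5) in CFA and 15.7 ± 10.5 CPM (SD, n = 5) in HFA, and the log2 fold change was -0.44 (SE 0.54, adjusted p = 0.863 by edgeR). The library with the lowest value, HFA 5, had 30 reads on Meg3.

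Meg3 was lowest where the fibroblast markers were lowest. Its closest genes over the 10 libraries were Gpc3, a cell-surface proteoglycan, Cyfip1, a regulator of actin, and Ctsk, a collagen-degrading protease, each with a Spearman rho of 0.98. The 6 fibroblast markers, all detected in every library, summed to 1748 to 6980 CPM in CFA and 650 to 5765 CPM in HFA, with HFA 5 (650 CPM) and HFA 4 (1030 CPM) lowest, as for Meg3. Per 1000 CPM of these markers Meg3 was at 4.98 ± 1.67 CPM (SD, n = 5) in CFA and 5.51 ± 1.96 CPM (SD, n = 5) in HFA, and it spanned 2.84-fold over the libraries against 14.8-fold for Meg3 itself. HFA 5 was lowest on both scales, at 2.94 CPM per 1000 and 1.91 CPM, so the contrast rests largely on that library. Without it the ratio ran from 3.81 to 8.35 CPM per 1000 and Meg3 from 8.59 to 28.2 CPM. Whether fibroblast content sets the difference was not tested.

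**Figure D2:**
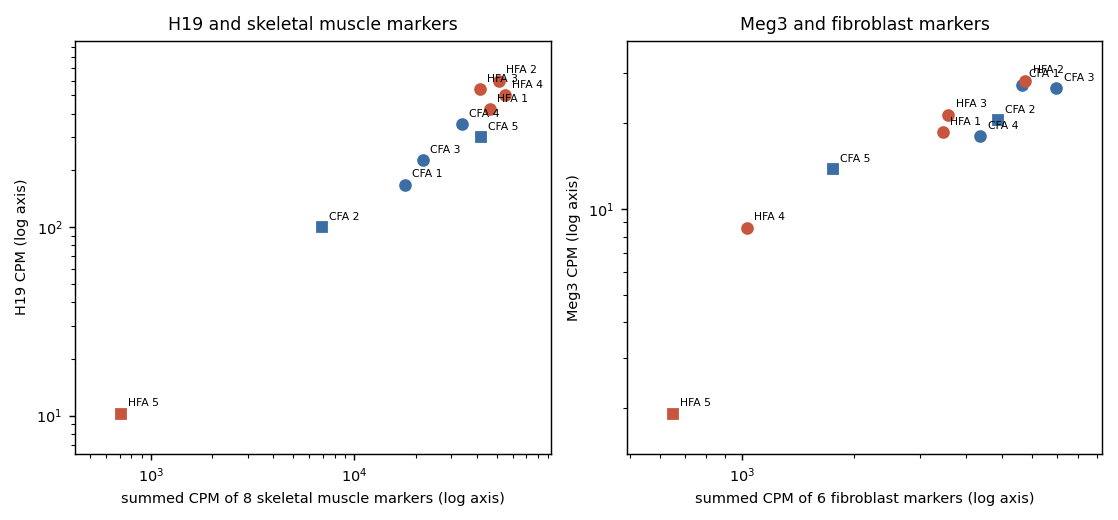
H19 against the summed CPM of 8 skeletal muscle markers (left) and Meg3 against the summed CPM of 6 fibroblast markers (right), both axes logarithmic, 1 point per library, with CFA in blue, HFA in red and squares for libraries with lymphocyte markers. HFA 5, at 10.2 CPM of H19 and 712 CPM of muscle markers, lies at the lower left of both plots.

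The other noncoding RNAs of the Meg3 cluster ranked the libraries much as Meg3 did. Rian, the snoRNA-bearing RNA downstream of Meg3, was at 26.3, 23.6, 27.8, 16.8 and 15.2 CPM in CFA 1 to 5 and at 12.2, 24.1, 17.7, 6.40 and 3.56 CPM in HFA 1 to 5. Its Spearman rho with Meg3 was 0.90, at place 40 of the 15609 other genes, and its log2 fold change was -0.78 (SE 0.45, adjusted p = 0.707 by edgeR). Mirg, further downstream, had a rho of 0.82 with Meg3, whereas Dlk1, the protein-coding gene of the cluster expressed from the paternal chromosome, had a rho of 0.09. Both were near the floor, Mirg at 0.13 to 1.54 CPM and Dlk1 at 0.44 to 1.88 CPM over the libraries. Their ranks therefore carry counting error, and the difference between their rho values was not tested. Igf2, the neighbour of H19, had a rho of 0.30 with H19 and of 0.76 with Meg3. These 4 genes were named after their values had been seen.

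Imprinted genes as a list did not share a direction. Of 22 listed, 17 were tested, 11 higher and 6 lower in HFA; their median log2 fold change was 0.08, and none was below an unadjusted p of 0.05. The 2 most abundant were Igf2r, the receptor that clears Igf2, at 125 ± 17.2 CPM in CFA and 150.5 ± 30.1 CPM in HFA (adjusted p = 0.724 by edgeR), and the zinc finger gene Peg3, at 91.8 ± 22.3 CPM and 141.5 ± 83.2 CPM (adjusted p = 0.708 by edgeR). Of 21 other nuclear and regulatory RNAs, 17 were tested, 6 higher and 11 lower, with a median of -0.11. Peg13, an imprinted RNA expressed from the paternal chromosome, was the only one with an unadjusted p below 0.05. It ran from 43.5 to 71.7 CPM in CFA and from 67.0 to 79.2 CPM in HFA, so that the log2 fold change was 0.38 (SE 0.14, unadjusted p = 0.0233, adjusted p = 0.655 by edgeR), and the diets overlapped.

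Gas5, first isolated as an RNA that accumulates in growth-arrested cells, was measured at 154, 206, 118, 91.3 and 101 CPM in CFA 1 to 5 and at 83.8, 72.6, 90.1, 89.7 and 190.8 CPM in HFA 1 to 5. HFA 1 to 4 were below every CFA library, with HFA 3 (90.1 CPM) close under CFA 4 (91.3 CPM), and HFA 5 was above all libraries but CFA 2. The means were 134 ± 46.9 CPM (SD, n = 5) in CFA and 105 ± 48.2 CPM (SD, n = 5) in HFA, and the log2 fold change was -0.35 (SE 0.31, adjusted p = 0.806 by edgeR).

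Snhg1 was measured at 32.1, 46.1, 27.2, 19.9 and 20.8 CPM in CFA 1 to 5 and at 17.05, 17.5, 21.4, 23.3 and 41.2 CPM in HFA 1 to 5. Its highest libraries were again CFA 2 and HFA 5, and the diets overlapped. The log2 fold change was -0.27 (SE 0.30, adjusted p = 0.847 by edgeR).

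Snhg12 was measured at 18.0, 23.4, 13.8, 12.6 and 16.6 CPM in CFA 1 to 5 and at 10.7, 9.14, 6.95, 19.4 and 28.2 CPM in HFA 1 to 5. HFA 1, 2 and 3 were below every CFA library, HFA 4 was inside the CFA range, and HFA 5 was the highest of all. The log2 fold change was -0.17 (SE 0.37, adjusted p = 0.923 by edgeR). It changed sign, to 0.0031, when HFA 3 was left out.

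Gas5 and Snhg1 kept a nearly fixed ratio in every library, on chromosomes 1 and 19 respectively. The log2 ratio of Snhg1 to Gas5 CPM stayed between -2.30 and -1.94, with an SD of 0.11 over the 10 libraries. Among 15492 genes with a count in every library, only Armc10 had a steadier ratio to Gas5 (SD 0.10), and the median SD was 0.66. The ratio of Snhg12 to Gas5 was looser, from -3.70 in HFA 3 to -2.21 in HFA 4 with an SD of 0.39, which put Snhg12 at place 1359. Neither ratio separated the diets: Snhg1 to Gas5 averaged -2.20 ± 0.07 (SD, n = 5) in CFA and -2.12 ± 0.14 (SD, n = 5) in HFA, and Snhg12 to Gas5 averaged -2.96 ± 0.22 and -2.92 ± 0.53. In the ranking of the 10 libraries, Snhg1 was only at place 319 of the 15609 other genes for Gas5 (Spearman rho 0.88). Gas5 was at place 72 for Snhg1.

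**Figure D3:**
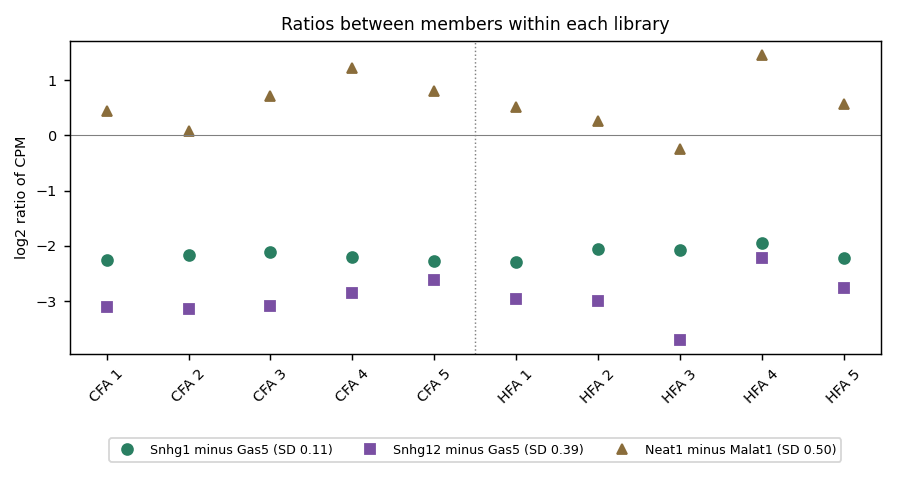
Log2 ratio of CPM between pairs of the genes in each of the 10 libraries, with CFA left and HFA right of the dotted line. Snhg1 to Gas5 stays within -2.30 to -1.94, while Snhg12 to Gas5 and Neat1 to Malat1 move by over 1 log2 unit, most in HFA 3 and HFA 4.

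For each host gene, the 3 genes with the most similar ranking of libraries were found. For Gas5 they were Armc10 (Spearman rho 1.00), Btf3, a factor that binds nascent polypeptides (0.99), and the cyclophilin-like gene Ppil2 (0.99). For Snhg1 they were Cct4, a subunit of the cytosolic chaperonin (0.99), Zfas1, itself a snoRNA host (0.99), and Rtcb, the transfer RNA ligase (0.98). For Snhg12 they were Tdp2, which repairs topoisomerase adducts (0.99), the ubiquitin ligase Rnf138 (0.99) and Fbxl6 (0.98). These rankings are descriptions over 10 libraries that share their mix of cells.

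Of 17 other snoRNA host genes, 10 were tested, 2 higher and 8 lower in HFA. Their median log2 fold change was -0.14, and none was below an unadjusted p of 0.05. Zfas1 was at 36.9 ± 17.3 CPM in CFA and 28.4 ± 11.4 CPM in HFA (log2 fold change -0.37, SE 0.34, adjusted p = 0.814 by edgeR), with its highest values in CFA 2 (65.0 CPM) and HFA 5 (47.4 CPM) like Gas5 and Snhg1. Snhg11, the most abundant of the other hosts, was at 72.8 ± 12.2 CPM and 65.9 ± 28.0 CPM (adjusted p = 0.929 by edgeR). Of the 12 proteins of snoRNA particles, 1 was higher and 11 lower, with a median of -0.08 and none below an unadjusted p of 0.05. The H/ACA protein Nop10 was at 43.8 ± 4.27 CPM in CFA and 47.1 ± 6.42 CPM in HFA. The pseudouridine synthase Dkc1 was at 43.9 ± 4.95 CPM and 43.1 ± 10.6 CPM, and both genes differed by less than their SDs.

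The machinery that translates and degrades host RNAs showed small differences. Of 14 nonsense-mediated decay factors, 12 had a higher level in HFA and 2 a lower one, beside 9372 higher and 6238 lower among all genes tested. The median was 0.09 beside 0.06 over all genes. The endonuclease Smg6 was the only one with an unadjusted p below 0.05, at 46.8 ± 2.92 CPM in CFA and 53.9 ± 1.39 CPM in HFA (log2 fold change 0.20, SE 0.09, unadjusted p = 0.0410, adjusted p = 0.667 by edgeR). Of 16 non-ribosomal genes listed for transcripts of the terminal oligopyrimidine kind, 4 were higher and 12 lower, with a median of -0.14; the run defined above was found in 5 of the 10 promoters of this list that were at hand. Among them the elongation factors Eef2, at 1877 ± 185 CPM and 2062 ± 189.6 CPM, and Eef1a1, at 1776 ± 268 CPM and 1592 ± 667 CPM, had adjusted p values of 0.874 and 0.907 by edgeR.

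**Figure D4:**
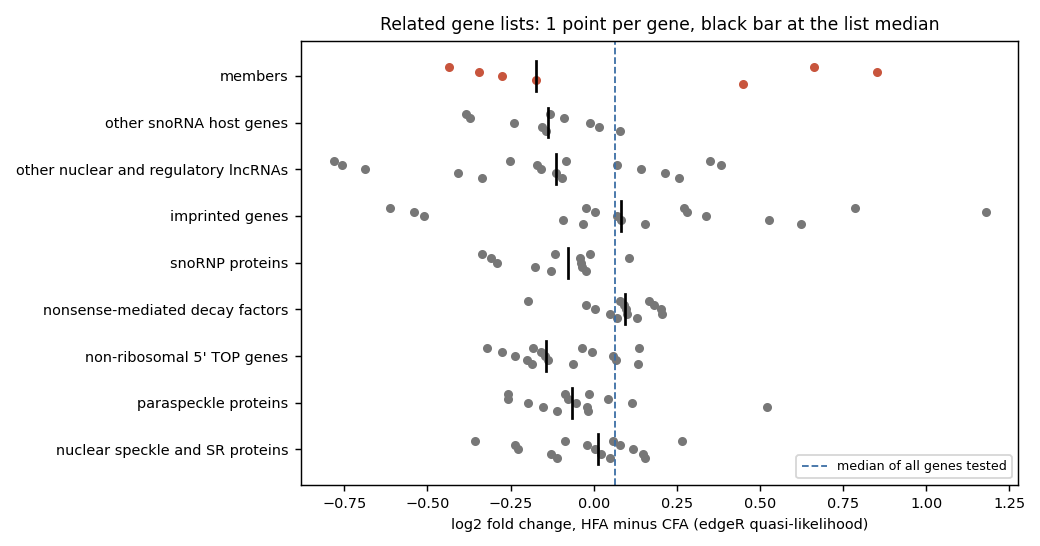
Log2 fold change (HFA minus CFA) of every tested gene in the members and the 8 related lists, 1 point per gene, with a black bar at each list's median and a dashed line at the median of all genes tested (0.06). The other snoRNA host, snoRNA-particle protein and terminal oligopyrimidine (TOP) lists have medians of -0.14, -0.08 and -0.14, and H19 is the member farthest to the right at 0.85.

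Proliferation markers, like Gas5, were low in HFA 1 to 4 and higher in HFA 5. The 7 markers, none at 0 in any library, summed to 98.8 to 271 CPM in CFA, to 24.2 to 65.7 CPM in HFA 1 to 4 and to 241 CPM in HFA 5. Gas5 did not keep a steady ratio to them: per 1000 CPM of these markers it spanned 8.51-fold over the libraries, against 2.84-fold for Gas5 itself, with means of 836 ± 303 CPM (SD, n = 5) in CFA and 1833 ± 1120 CPM (SD, n = 5) in HFA. The lymphocyte markers of CFA 2 and HFA 5 stand beside the highest host levels too, while CFA 5, which also carried them, had Gas5 and Snhg1 among the lowest CFA values. With B and T cell markers in the model, the log2 fold change was -0.32 for Gas5, -0.24 for Snhg1 and -0.13 for Snhg12. Without them it was -0.35, -0.27 and -0.17. No fit held the proliferation markers, and the part of either set of markers in the host levels was not tested.

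Each library was left out in turn, and the fit without HFA 5 is given in full because it alone kept the diets from separating for Neat1, H19 and Gas5. Without it, every HFA library was above every CFA library for Neat1 and H19 (5.6% of the 15735 genes tested) and below for Gas5 (4.72%). This separation was fixed in advance by the choice of library, so it is no test of the diet for these genes. The fold changes and p values of Neat1, H19 and Gas5 in this fit carry the same selection and are descriptions only. H19 averaged 230 ± 101 CPM (SD, n = 5) in CFA and 515 ± 74.6 CPM (SD, n = 4) in HFA, and the log2 fold change was 1.13 (SE 0.31, unadjusted p = 0.00470, adjusted p = 0.0939 by edgeR). For Gas5 the HFA mean became 84.1 ± 8.14 CPM (SD, n = 4), with a log2 fold change of -0.72 (SE 0.23, adjusted p = 0.112 by edgeR). For Neat1 it became 728 ± 73.3 CPM (SD, n = 4), with a log2 fold change of 0.50 (SE 0.17, adjusted p = 0.119 by edgeR). Snhg1 and Snhg12 had log2 fold changes of -0.60 and -0.59, with adjusted p values of 0.164 and 0.229 by edgeR, and Meg3 one of -0.18. In that fit 25.8% of all genes had an unadjusted p below 0.05 and 6 genes (0.0381%) an adjusted one, none of them a member.

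Without all 3 libraries that carried lymphocyte markers, 3 CFA and 4 HFA libraries remained. The same 3 genes did not overlap between diets, against backgrounds of 9.76% of genes higher and 10.6% lower in HFA. The libraries left out include the HFA library that alone kept H19, Neat1 and Gas5 from separating. Their non-overlap was thus again fixed by the selection and is no test of the diet. The fold changes and p values of these genes in this fit carry that selection too and are descriptions only. The log2 fold change was 1.04 for H19 (SE 0.25, adjusted p = 0.0606 by edgeR), 0.57 for Neat1 (SE 0.15, adjusted p = 0.0747) and -0.53 for Gas5 (SE 0.17, adjusted p = 0.116). No member passed the threshold, whereas 469 genes (2.98%) did. The muscle markers were within these 7 libraries also higher in every HFA library (41379 to 54996 CPM) than in every CFA library (17638 to 33642 CPM).

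**Figure D5:**
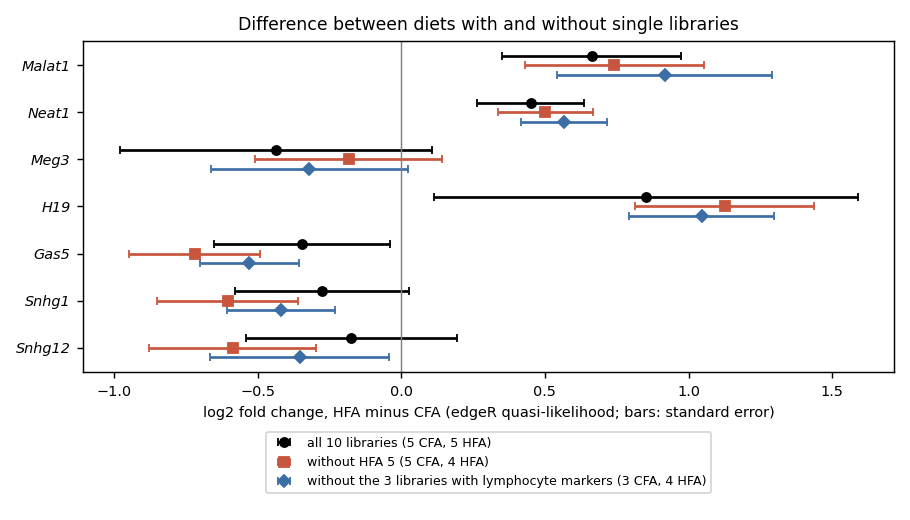
Log2 fold change (HFA minus CFA) of each gene from edgeR, with bars of 1 standard error, for all 10 libraries, without HFA 5, and without the 3 libraries with lymphocyte markers. The signs are the same in all 3 fits, and the bar of H19 shortens from 0.74 to 0.31 once HFA 5 is left out.

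Across these 7 libraries, which hold both diets, the 21 pairs of genes were correlated on log2 CPM. Gas5 and Snhg1 varied together, with Pearson r = 0.94 (exact permutation p = 0.00238, adjusted 0.0354 over the 21 pairs) and Spearman rho = 0.82 (exact permutation p = 0.0341, adjusted 0.239). H19 and Gas5 ran in opposite directions, with r = -0.94 (exact permutation p = 0.00337, adjusted 0.0354) and rho = -0.86 (exact permutation p = 0.0238, adjusted 0.239). Without the 2 libraries farthest from the median of the first gene, r was 0.70 for Gas5 with Snhg1 and -0.57 for H19 with Gas5. The diets did not overlap for H19 or Gas5 in these libraries, so the second relation cannot be told apart from the diet difference. Gas5 is in the first pair too, and libraries were permuted over both diets. The p values of that pair thus mix the diet difference with covariation among mice. The other 19 pairs did not pass by Pearson r, and 0 of 21 passed by Spearman rho.

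The second digit of the sample titles, whose meaning the labels do not give, divides the libraries into 2 CFA and 3 HFA with digit 2 and 3 CFA and 2 HFA with digit 3. The host genes differed between the diets in opposite directions in the 2 sets. The log2 fold change was -1.10 for Gas5, -1.03 for Snhg1 and -1.17 for Snhg12 with digit 2, and 0.35, 0.42 and 0.64 with digit 3. For H19 it was 1.97 with digit 2 and -0.27 with digit 3, and for Meg3 -0.05 and -1.98, while Malat1 had 0.80 and -0.02 and Neat1 had 0.69 and 0.12. The difference between the sets had an unadjusted p of 7.02e-04 for Snhg12, 0.00383 for Snhg1, 0.00521 for Gas5 and 0.0474 for Meg3, and an adjusted p of 0.568 for each of these by edgeR's interaction term. HFA 5 is 1 of the 2 HFA libraries with digit 3, and CFA 2 is 1 of the 2 CFA libraries with digit 2.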

How the data were processed

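The authors aligned 75 bp paired-end reads of TruSeq RNA v2 libraries to GRCm38 with TopHat2 2.0.14 and Bowtie2 2.2.5 and counted them on Ensembl release 83 genes with HTSeq 0.6.1. The strand setting and overlap mode were not given in the sources used here. The kit selects polyadenylated RNA and keeps no strand, so reads from a gene and an antisense partner could not be told apart, and short snoRNAs and microRNAs are not captured. Each deposited file lists unnormalized counts of 46983 genes, then 5 lines of HTSeq totals, which were left out of library sizes; no column was without a sample. Reads on no gene made up 3.43% to 5.47%, on more than 1 gene 3.52% to 4.29%, and with more than 1 alignment 28.8% to 33.9% of the counted lines.

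Diet groups came from the sample labels. Nothing in them names cages, which the study's own model included. Symbols and positions were found for 46488 genes in GENCODE M21. The counts were filtered with filterByExpr, scaled by TMM and fitted by diet with edgeR 4.0.16 (quasi-likelihood test, R 4.3.3), and p values were adjusted by Benjamini-Hochberg over 15610 genes (threshold 0.05). Alternatives used edgeR's likelihood ratio test, DESeq2 1.42.0 and limma 3.58.1. CPM used TMM library sizes; log2 CPM used a prior count of 2. RPKM divided CPM by exonic length in GENCODE M21, which is not the release used for counting. The 10 libraries were not copies of one another, since the highest pairwise correlation was 0.983. On simulated counts of 15437 genes with 200 changed 4-fold, the test recovered 151 with 6 false calls.

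The 7 genes and all lists were chosen with earlier results of these data known, and some are among the genes that the study had listed from these libraries, so they are not independent evidence. Of each related list, genes with an unadjusted p below 0.05 (at most 3) were named, or else the 2 most abundant; of each marker list the most abundant gene may be named; for likeness, the 3 genes with the highest Spearman rho. The symbols Snhg4, Snhg7, Snhg10, Snhg16 and Oip5os1 matched no counted gene and were not analysed here. Counts of higher and lower genes in the lists hold for TMM scaling.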

Additional observations from a re-analysis of the deposited data

Results flagged for a closer look

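Within a diet, 1 library stood far from the other 4 for a pair of the host genes. Gas5 was at 190.8 CPM in HFA 5, and its gap to the next HFA library was 0.852 of the group's range. Snhg1 was at 41.2 CPM in HFA 5, with a gap of 0.741 of the range. Both exceed Dixon's critical value of 0.71 for 5 samples. In all, 14 sets of 5 libraries were examined, and chance flags about 1 set in 20. HFA 5 is also the library with the highest lymphocyte markers. Without it the log2 fold change of Gas5 went from -0.35 to -0.72 and that of Snhg1 from -0.27 to -0.60. With B and T cell markers in the model and every library kept, the values were -0.32 for Gas5 and -0.24 for Snhg1. What sets the levels in HFA 5 was not tested.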

How the results depend on the processing

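The log2 fold changes of the 7 genes were recomputed under 168 combinations of gene and setting (2 other scalings, 2 other filters, 4 other tests, covariates and single libraries left out), of which 165 kept their direction and their side of the threshold. Neat1 passed it in limma voom with sample quality weights (0.62, adjusted p = 0.0394); over its other settings the adjusted p reached 0.890 with the replicate block and, with single libraries left out, 0.999 without CFA 2. H19 changed sign with lymphocyte (B and T cell) markers in the model (-0.014, adjusted p = 0.996), and Snhg12 changed sign without HFA 3 (0.0031). With single libraries left out, the log2 fold change ran from 0.45 to 0.83 for Malat1, 0.32 to 0.55 for Neat1, -0.76 to -0.18 for Meg3, 0.62 to 1.13 for H19, -0.72 to -0.20 for Gas5, -0.60 to -0.11 for Snhg1 and -0.59 to 0.0031 for Snhg12. The values nearest 0 for H19, Gas5 and Snhg1 were those without CFA 2.

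The number of genes past an adjusted p of 0.05, 0 in the quasi-likelihood test, was 33 in edgeR's likelihood ratio fit, 60 in DESeq2, 1037 in limma voom with quality weights, 3 with lymphocyte markers and 1 with epithelial markers in the model, and 469 without the 3 libraries that carried lymphocyte markers; the cause was not tested. It ran from 0 to 6 when single libraries were left out, and the 6 came without HFA 5. Leaving out those 3 libraries and adding muscle markers to the model were chosen after seeing the data; the latter gave 0 genes and moved H19 from 0.85 to 0.09 and Meg3 from -0.44 to -0.88. With a prior count of 0.5, 2 pairs of genes again passed by Pearson r.

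The last digits of the titles are shared by 4 libraries of each diet. The correlations of their deviations from the diet means were 0.298, -0.294, 0.111 and 0.410, and 4 of the 8 libraries correlated best with the library of the same number, so the numbers were not taken to pair the mice. With the number as a replicate block, 0 genes passed, and the log2 fold changes were 0.35 for Malat1, 0.36 for Neat1, -1.03 for Meg3, 0.81 for H19, -0.46 for Gas5, -0.31 for Snhg1 and -0.34 for Snhg12.

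Meg3 in HFA 5 rests on 30 reads and Snhg12 in its shallowest library on 49, so ratios of these genes carry counting error beside the spread between mice. Counting error alone is small for the other 5 genes, each with at least 151 reads in every library.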
